A study of Homo sapiens with 6 samples.

Results

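The 29 genes described here encode the enzymes of cholesterol synthesis, the SREBP transcription factors that control them with their partners in the endoplasmic reticulum (ER), and the fatty acid enzymes that SREBP also drives. They were chosen by name, by a rule that uses no measured value. Of the 29 genes, 26 were found on a probe set with exactly 1 gene symbol, out of 11963 genes named in this way on the array, and together they have 50 such probe sets out of 22215. CYP51A1, the lanosterol demethylase, lies only on 2 probe sets that carry several symbols, and FDFT1 (squalene synthase) and STARD4 (a cytosolic sterol carrier) were not analysed here. Each gene is given by its brightest probe set, the one with the highest mean over the arrays, and the other probe sets are compared with it further on.

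Cholesterol is built from acetyl-CoA through mevalonate and isopentenyl units, which are joined into farnesyl diphosphate and squalene, closed into lanosterol and trimmed to cholesterol. SREBP precursors sit in the ER membrane bound to SCAP, and when ER sterol is low SCAP carries them to the Golgi, where proteases release the active factor. When sterol is high, INSIG proteins hold SCAP in the ER. The pathway shares its organelle with the unfolded protein response, and the brain makes its own cholesterol, since lipoproteins of the blood do not cross into it.

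The cells were SH-SY5Y, an established human neuroblastoma line of neuronal character. One group was exposed for 1 h to unconjugated bilirubin (UCB) at a free concentration of 140 nM (Bf 140 nM), Bf being the fraction not bound to albumin, and the other received only the solvent, dimethyl sulfoxide at 0.6% (DMSO 0.6%). UCB was brought in the same solvent, so both groups carry DMSO, and both were kept in serum-containing medium, which is itself a source of lipoprotein cholesterol and albumin. Each group has 3 arrays, which the study's methods describe as independent biological replicates, and both groups carry the replicate numbers 1, 2 and 3. The comparison asks whether 1 h of bilirubin changed the transcript levels of these genes.

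The values are deposited generalized log2 values from Affymetrix arrays, and array medians ran from 7.73 to 7.97. A difference of 1 is 2-fold at high signal, while near the floor of the scale it can stand for a larger fold. The base of the logarithm was taken from the normalization method. Both replicate 3 arrays stood apart: the signal of the 3′ actin control over its 5′ control was 1.49 and 1.90 on the log2 scale there, against 0.10 to 0.50 on the other 4 arrays, and for GAPDH it was 1.03 and 1.15 against 0.20 to 0.25. Of the 10 noradrenergic markers listed for the line 9 were measured, and 7 of them, among them PHOX2A, DBH, GATA3 and ISL1, lay in the brightest 25% of probe sets, while the probe set of TH lay in the dimmest 25%. Of 6 mesenchymal markers COL3A1 lay in the brightest 25%, COL1A1, DCN and LUM lay in the next 25%, and COL1A2 and POSTN lay below the median of probe sets. All 5 leukocyte and all 5 hepatocyte markers lay below the median.

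SREBP acts on promoters together with the factors NF-Y and Sp1, so the promoter windows of the 29 genes were read for their motifs. RefSeq (GRCh38.p14) gave a window of 250 bases before to 50 after the start for 25 of the 29 genes, 36 windows in all, and none for ACAT2, FASN, FDFT1 and SQLE. Motifs were searched as exact letters on both strands. CCAAT, the NF-Y box, was present for 20 of the 25 genes (80%), against 39.7% of all 27305 genes of the table. By window it was present in 24 of 36, against 34.6% of all windows of this length. A window with 2 or more such boxes was found for 14 of the 25 genes (56%), against 12.9% of all genes. GGGCGG, the Sp1 GC box, was present for 24 of 25 (96%), the exception being NSDHL, against 48.3% of all genes. By window it was present in 32 of 36, against 45% of all windows. CACGTG, the E-box, was present for 4 genes (INSIG1, LSS, SC5D and SCAP, 16%), against 8.77% of genes, and in 5 of 36 windows, against 7.26%. TCACNCCAC, a form of the sterol regulatory element, was present only in SREBF2 (4%), against 1.39% of genes, and in 1 of 36 windows, against 1.13%. CYP51A1, INSIG2, PMVK, SCAP and SREBF1 had no CCAAT in their windows. A match is a description of letters and not a measured binding site, and a site spelled with other letters counts as absent.

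The stretches that hold the marked motifs are shown for 6 genes, picked after the matches were seen: SREBF2 for its sterol element, INSIG1 for its E-box, and FDPS, MSMO1, MVK and NSDHL for their runs of NF-Y boxes. All read 5′ to 3′ on the plus strand of GRCh38.p14 and end before the start site, and capitals mark the sterol element, CCAAT or its reverse complement ATTGG, and CACGTG. GC boxes are left in lower case.
SREBF2 (chr22:41832964-41833011): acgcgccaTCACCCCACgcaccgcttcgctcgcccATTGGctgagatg
INSIG1 (chr7:155297700-155297836): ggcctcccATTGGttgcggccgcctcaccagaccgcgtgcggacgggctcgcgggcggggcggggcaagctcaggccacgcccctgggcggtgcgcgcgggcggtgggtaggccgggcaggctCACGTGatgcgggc
FDPS (chr1:155308682-155308827): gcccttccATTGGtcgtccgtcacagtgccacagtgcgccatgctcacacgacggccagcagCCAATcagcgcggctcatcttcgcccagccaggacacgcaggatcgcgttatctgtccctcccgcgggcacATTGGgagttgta
MSMO1 (chr4:165327476-165327647): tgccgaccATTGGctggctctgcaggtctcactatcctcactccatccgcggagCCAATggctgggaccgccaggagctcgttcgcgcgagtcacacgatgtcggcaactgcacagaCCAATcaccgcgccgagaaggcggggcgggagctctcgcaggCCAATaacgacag
MVK (chr12:109573576-109573760): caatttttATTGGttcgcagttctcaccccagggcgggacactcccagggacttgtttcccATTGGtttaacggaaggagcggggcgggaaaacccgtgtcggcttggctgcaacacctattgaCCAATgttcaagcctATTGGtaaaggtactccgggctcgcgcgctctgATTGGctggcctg
NSDHL (chrX:152830827-152830991): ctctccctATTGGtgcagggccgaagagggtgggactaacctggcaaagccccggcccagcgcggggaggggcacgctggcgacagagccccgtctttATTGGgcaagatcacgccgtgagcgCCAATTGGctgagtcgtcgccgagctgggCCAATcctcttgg
In SREBF2 the sterol element TCACCCCAC was followed by an inverted NF-Y box that began 106 bases before the start. In NSDHL 2 boxes share letters in CCAATTGG, so its count of 5 includes an overlapping pair. The boxes of FDPS began 176, 122 and 51 bases before the start, those of MSMO1 at 185, 139, 76 and 34, and those of MVK at 210, 157, 94, 79 and 46. Among the measured genes with a window, the 19 with an NF-Y box had a median Bf 140 nM minus DMSO 0.6% difference of 0.0023 log2 and the 4 without one 0.0323, which was not tested.

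None of the 26 genes lay in the dimmest 25% of probe sets. The brightest 25% held 16 of them (61.5%, against 31% of all genes), the next 25% held 9, and MVD alone lay below the median. The share above the median of all probe sets was 96.2%, against 50% of probe sets by construction and 57.3% of all genes taken by their brightest probe set. Means over the 6 arrays ran from 7.37 (MVD) to 12.21 (ACLY). These are probe brightnesses, which depend on the probes, so no order of abundance among the enzymes follows. Standard deviations within a group of 3 ran from 0.026 to 0.66 log2, with medians of 0.19 in the Bf 140 nM group and 0.25 in the DMSO 0.6% group.

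**Figure D1:**
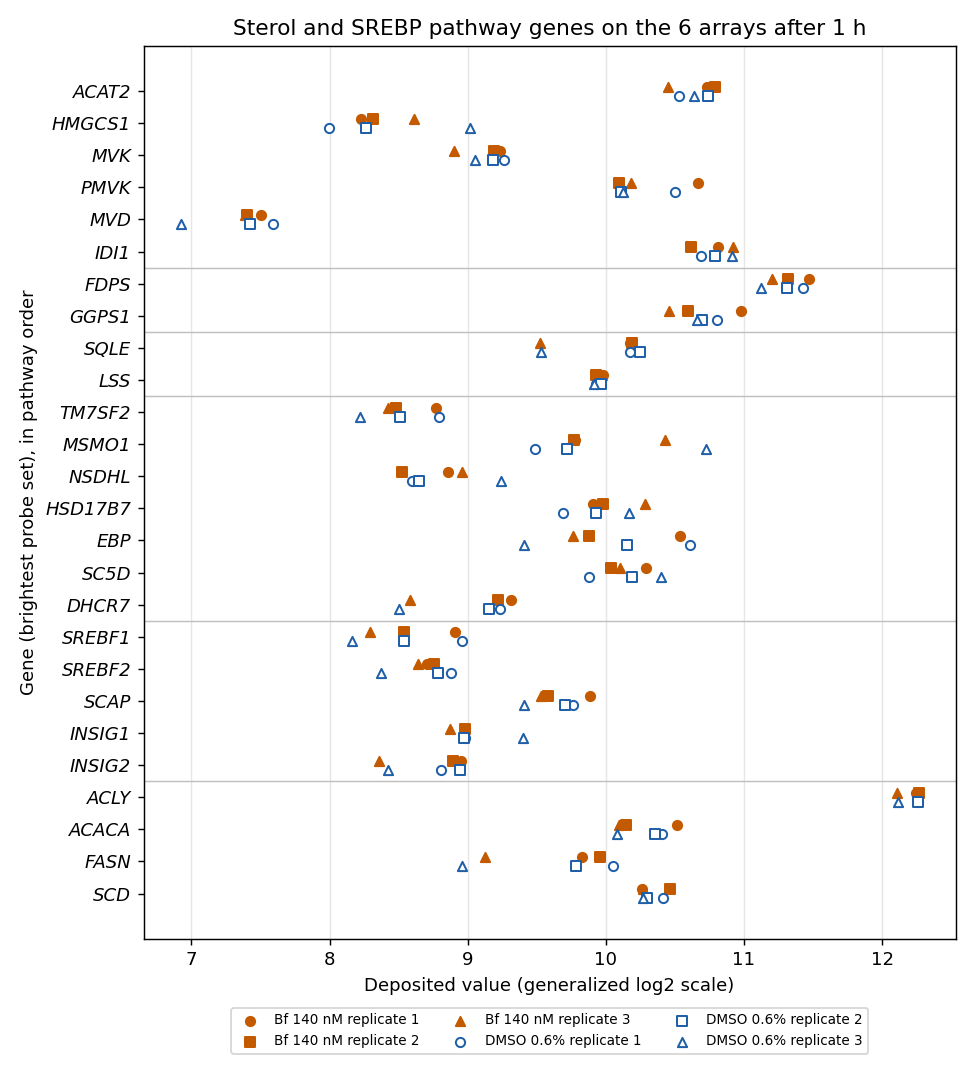
Deposited values (generalized log2, x axis) of the brightest probe set of each of the 26 genes (y axis, in pathway order, grey lines between roles), 1 point per array, filled orange for Bf 140 nM and open blue for DMSO 0.6%. For no gene do the 3 filled and the 3 open points separate, while the triangles of replicate 3 often lie to one side, below the other 4 arrays in 14 genes and above them in 5.

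No gene of the pathway passed the test between Bf 140 nM and DMSO 0.6% after 1 h. With limma and Benjamini-Hochberg adjustment over all 22215 probe sets at an adjusted p under 0.10, 0 of 26 genes were higher and 0 lower, where the background was 0% of probe sets in each direction. The smallest adjusted p among the genes was 1.00. At an unadjusted p under 0.05 limma had 0 of 26 genes, against 22 of all probe sets (0.099%) and 7 of all genes (0.0585%), and with the replicate block it had 0 of 26, against 1.22% and 0.828%. Each of these background shares lay under the nominal rate of 0.05, so 0 of 26 says little about these genes in particular. The fit without the block counts the spread between replicate numbers as error. SAM over all 20 label permutations called 0 probe sets at an FDR of 10%. The 3 values of one group lay wholly above those of the other in 0 of 26 genes and 0 of 50 probe sets, against 2.65% of all probe sets and 2.38% of all genes. These are bulk values of whole cultures, in which fewer cells with a transcript and less of that transcript per cell cannot be told apart.

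The differences were small and centred where those of all genes were. The median over the 26 genes was 0.013 log2, and over all 11963 genes it was also 0.013. The median size was 0.034, against 0.046 over all genes. The difference was positive in 16 genes and negative in 10 (61.5% positive, against 58.4% of all probe sets and 58.1% of all genes). It exceeded 0.1 log2 in size in 3 genes (11.5%, against 17.2% and 15.3%), namely INSIG1 at -0.18, HSD17B7 at 0.13 and MVD at 0.12. The pair medians, each the Bf array minus the DMSO array of one replicate number, were 0.063, -0.018 and 0.0092 for replicates 1, 2 and 3. In these pairs 17, 11 and 14 of 26 genes were positive. Over all 11963 genes the pair medians were 0.035, -0.0064 and 0.021, with 7047, 5657 and 6517 genes positive. The sign of the member median was therefore not shared by the 3 pairs, and the signs were those of all genes. The member median was 0.0030 without both replicate 3 arrays, and it was -0.0066 when arrays were set to equal medians.

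The precision sets what could have been seen. The 95% interval of a gene's difference reached a median of 0.38 log2 to either side, and 0.19 when the replicate number was a block. On the brightest probe sets the interval stayed within 2-fold in both directions for all 26 genes, the widest being MSMO1 with a bound of 1.84-fold, and for 19 genes it stayed within 1.5-fold. Over all 50 probe sets the bound exceeded 2-fold on 8, in ACLY, SCD, EBP, SQLE, GGPS1 and LSS, and reached 4.16-fold in ACLY (210337_s_at). With the block the widest bound on the brightest probe sets was 1.33-fold, and no interval of the 26 genes excluded 0. These fold bounds read the scale as plain log2, so for dim probe sets the true fold could be larger.

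**Figure D2:**
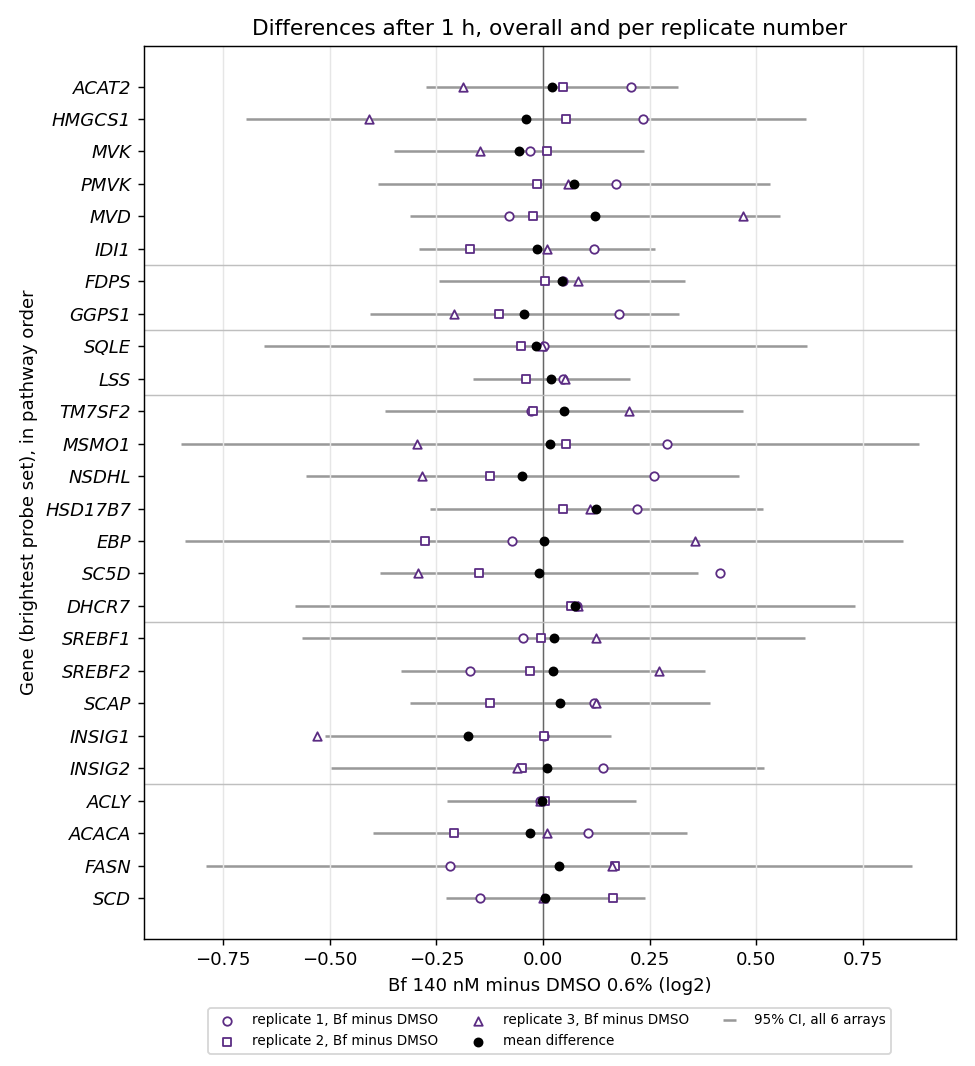
Bf 140 nM minus DMSO 0.6% (log2, x axis) for each gene (y axis, in pathway order): black points are the mean difference, grey bars its 95% interval from limma over all 6 arrays, and open symbols the difference within each replicate number. Every bar crosses 0, and only 1 of the 78 pair values, that of INSIG1 in replicate 3, exceeds 0.5 in size.

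In the first stage, from acetyl-CoA to isopentenyl units, 3 of 6 genes had a positive and 3 a negative difference, with a median of 0.0035. HMGCS1, the cytosolic HMG-CoA synthase, read 8.23, 8.32 and 8.61 in Bf 140 nM replicates 1 to 3 and 7.996, 8.26 and 9.02 in the DMSO 0.6% replicates. Replicate 3 gave the highest value in both groups, and the groups overlapped, with a difference of -0.040 (95% interval -0.70 to 0.62). MVD, the decarboxylase that closes the mevalonate stage, read 7.51, 7.40 and 7.39 with Bf 140 nM and 7.59, 7.42 and 6.92 with DMSO 0.6%. Its difference of 0.12 (95% interval -0.31 to 0.55) rested on the low DMSO 0.6% replicate 3 array, and the pairs of replicates 1 and 2 were -0.080 and -0.023. ACAT2, the acetoacetyl-CoA thiolase, differed by 0.021 (95% interval -0.27 to 0.32). MVK and PMVK, which phosphorylate mevalonate in turn, differed by -0.056 (95% interval -0.35 to 0.24) and 0.072 (95% interval -0.39 to 0.53). The isomerase IDI1 differed by -0.014 (95% interval -0.29 to 0.26), and its probe set has the suffix _x_at, which marks probes that may also match other transcripts.

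Of the genes for prenyl diphosphates, FDPS, the farnesyl diphosphate synthase, was positive in all 3 pairs, at 0.046, 0.0043 and 0.082. Its values were 11.47, 11.32 and 11.21 with Bf 140 nM and 11.43, 11.31 and 11.12 with DMSO 0.6%, so the groups overlapped and the difference was 0.044 (95% interval -0.24 to 0.33). FDPS, HSD17B7 and DHCR7 were the genes positive in all 3 pairs, 3 of 26 (11.5%), against 11.8% of all probe sets and 11.1% of all genes, and 0 of 26 were negative in all 3, against 5.83% and 5.17%. GGPS1, the geranylgeranyl diphosphate synthase, differed by -0.044 (95% interval -0.41 to 0.32).

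SQLE, the squalene epoxidase and the first step that needs oxygen, showed nearly the same value in both groups at each replicate number: 10.17, 10.19 and 9.52 with Bf 140 nM and 10.17, 10.24 and 9.53 with DMSO 0.6%. Its pairs were 0.0024, -0.052 and -0.0027, and replicate 3 lay -0.66 and -0.68 from the mean of replicates 1 and 2 in the Bf 140 nM and DMSO 0.6% groups. LSS, the lanosterol synthase, had the narrowest interval of the 26 genes, with 9.98, 9.93 and 9.97 in the Bf 140 nM arrays and 9.93, 9.97 and 9.92 in the DMSO 0.6% arrays. The difference was 0.020 (95% interval -0.16 to 0.20), which bounds it at 1.15-fold.

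Between lanosterol and cholesterol 5 of the 7 measured genes had a positive and 2 a negative difference, with a median of 0.015. MSMO1, a methylsterol oxidase, read 9.78, 9.77 and 10.43 with Bf 140 nM and 9.49, 9.72 and 10.72 with DMSO 0.6%. Replicate 3 was the highest array of each group, and the difference was 0.015 (95% interval -0.85 to 0.88). The sterol isomerase EBP read 10.54, 9.88 and 9.76 with Bf 140 nM and 10.61, 10.15 and 9.41 with DMSO 0.6%, lowest at replicate 3 in both groups, with a difference of 0.0023 (95% interval -0.84 to 0.84). HSD17B7, a ketosterol reductase, read 9.91, 9.98 and 10.28 with Bf 140 nM and 9.69, 9.93 and 10.17 with DMSO 0.6%. Each Bf array was above its DMSO partner, by 0.22, 0.046 and 0.11, yet the groups overlapped, with a difference of 0.13 (95% interval -0.27 to 0.52) and an interval of -0.057 to 0.31 with the block. Its probe set also ends in _x_at. DHCR7, the reductase of the last step in one branch, read 9.31, 9.22 and 8.58 with Bf 140 nM and 9.24, 9.15 and 8.50 with DMSO 0.6%. Its pairs lay between 0.066 and 0.081, and the difference was 0.075 (95% interval -0.58 to 0.73). SC5D, a sterol desaturase, had widely spread pairs of 0.42, -0.15 and -0.29 around a mean of -0.0093. The sterol dehydrogenase NSDHL and the sterol reductase TM7SF2 differed by -0.049 (95% interval -0.56 to 0.46) and 0.050 (95% interval -0.37 to 0.47).

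Among SREBP and its regulators INSIG1 had the most negative difference of the 26 genes. INSIG1 is itself a target of SREBP and feeds back by holding SCAP in the ER. Its brightest probe set, 201626_at, read 8.98, 8.98 and 8.87 in Bf 140 nM replicates 1, 2 and 3 and 8.98, 8.98 and 9.40 in the DMSO 0.6% replicates. The pairs of replicates 1 and 2 were close to 0, at 0.0019 and 0.0029, while the DMSO 0.6% replicate 3 array was the highest of the 6 and its pair was -0.53. The difference was -0.18 (95% interval -0.51 to 0.16), and with the block its interval was -0.41 to 0.061. Without both replicate 3 arrays it was 0.0024. The other 2 probe sets of INSIG1 gave 0.12 (201625_s_at) and -0.076 (201627_s_at), so 1 of 3 was positive.

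SREBF1, whose product is tied more to fatty acid synthesis, read 8.91, 8.54 and 8.29 with Bf 140 nM and 8.96, 8.54 and 8.16 with DMSO 0.6%, a difference of 0.025 (95% interval -0.56 to 0.61). SREBF2, tied more to sterol synthesis, read 8.71, 8.76 and 8.64 with Bf 140 nM and 8.88, 8.79 and 8.37 with DMSO 0.6%, a difference of 0.023 (95% interval -0.33 to 0.38). In SREBF1 replicate 1 was the highest and replicate 3 the lowest array of both groups, while in SREBF2 the DMSO 0.6% replicate 3 array was the lowest of the 6. The escort SCAP differed by 0.040 (95% interval -0.31 to 0.39) and INSIG2, the second retention protein, by 0.010 (95% interval -0.50 to 0.52).

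The 4 fatty acid genes that SREBP drives had a median difference of 0.0013, from -0.031 to 0.037. ACLY, which makes cytosolic acetyl-CoA from citrate, read 12.25, 12.27 and 12.11 with Bf 140 nM and 12.26, 12.26 and 12.12 with DMSO 0.6%, and none of its 3 pairs passed 0.01 in size. FASN, the fatty acid synthase, read 9.83, 9.96 and 9.12 with Bf 140 nM and 10.05, 9.79 and 8.96 with DMSO 0.6%, with both replicate 3 arrays lowest and a difference of 0.037 (95% interval -0.79 to 0.87). ACACA, the acetyl-CoA carboxylase, and SCD, the stearoyl-CoA desaturase, differed by -0.031 (95% interval -0.40 to 0.34) and 0.0057 (95% interval -0.23 to 0.24).

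The replicate number held most of the spread of these genes. It took over 50% of the sum of squares over the 6 arrays in 22 of 26 genes (84.6%), against 74.3% of all probe sets and 74.8% of all genes. Its median share was 85.3%, against 0.81% for the treatment and 11.4% for the remainder, where the medians over all genes were 76.1%, 2.56% and 15.8%. The shares are not scaled by degrees of freedom, of which the treatment has fewer than the replicate number or the remainder. The replicate share ran from 4.68% (LSS) to 99.8% (SQLE), and the highest treatment share was 26.3%, in INSIG1.

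**Figure D3:**
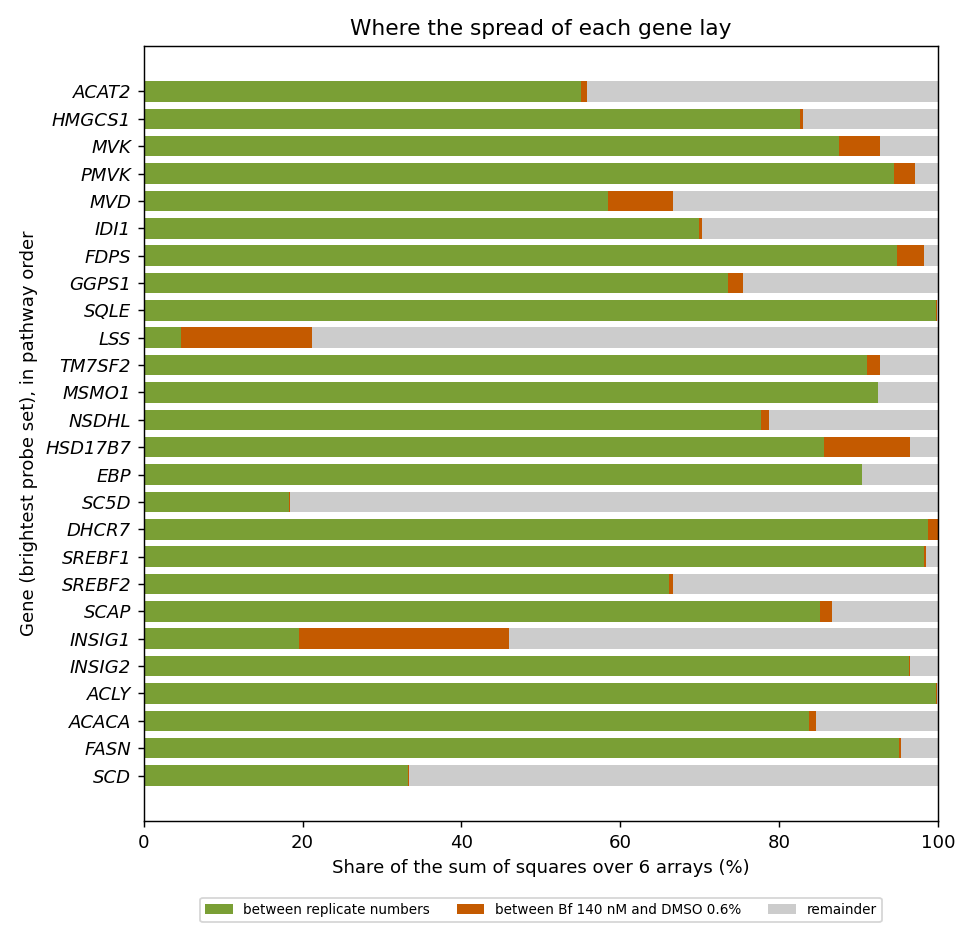
Share of each gene's sum of squares over the 6 arrays (%, x axis) that lay between the replicate numbers (green), between Bf 140 nM and DMSO 0.6% (orange) and in the remainder (grey), genes in pathway order on the y axis. Green exceeds 50% in 22 of 26 genes, and LSS, SC5D, INSIG1 and SCD are the exceptions.

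Replicate 3 was compared with the mean of replicates 1 and 2 in a limma fit with treatment as a term. This describes these 3 pairs of arrays and no condition of the study, and the part of the 3′ bias of the replicate 3 arrays in it was not tested. The contrast was chosen because earlier results of these data showed both replicate 3 arrays apart. Its p-values take the remainder within these pairs of arrays as error, so they do not measure the spread between replicate numbers. At an adjusted p under 0.10, 4 genes were higher at replicate 3 (15.4%, against 17.7% of all probe sets and 20% of all genes) and 13 were lower (50%, against 29% and 25.6%), 17 in either direction (65.4%, against 46.7% and 45.7%). These backgrounds include dim probe sets, which the members mostly are not. Among probe sets above the median level, 4 of 25 genes were higher and 12 lower, where the background was 28.9% and 33.3%. When arrays were set to equal medians the split was 8 higher and 6 lower, where the background was 38.3% and 14.8% of probe sets and the median of all probe sets moved from -0.067 to 0.13, and after quantile normalization it was 5 and 13, against 24.7% and 21.7%. The 4 higher and 6 of the 13 lower genes were called in the same direction under all 3 scalings. Without DMSO 0.6% replicate 2 the counts were 4 higher and 6 lower, again the same 10 genes.

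The 4 higher genes were MSMO1 at 0.89 (adjusted p = 5.0e-05), HMGCS1 at 0.61 (adjusted p = 0.00123), NSDHL at 0.45 (adjusted p = 0.00618) and HSD17B7 at 0.35 (adjusted p = 0.00751). The 6 genes lower under all 3 scalings were FASN at -0.86 (adjusted p = 2.8e-05), EBP at -0.71 (adjusted p = 3.9e-04), DHCR7 at -0.69 (adjusted p = 4.4e-05), SQLE at -0.67 (adjusted p = 5.8e-05), INSIG2 at -0.51 (adjusted p = 6.5e-04) and SREBF1 at -0.51 (adjusted p = 6.0e-04). In HMGCS1, NSDHL and EBP another probe set of the gene passed in the opposite direction. The other 7 lower genes, which were not called with equal array medians, were MVD, TM7SF2, SREBF2, ACACA, SCAP, MVK and FDPS, between -0.33 and -0.22. ACAT2, PMVK, IDI1, GGPS1, LSS, SC5D, INSIG1, ACLY and SCD did not pass. Both replicate 3 arrays lay below the other 4 in 14 genes (53.8%, against 34.1% of all probe sets and 30.6% of all genes) and above them in 5 (19.2%, against 18.9% and 21%). The sign of the replicate 3 shift was the same in both groups in 22 of 26 genes, and the shift was larger in the DMSO 0.6% group in 18. The shares over all genes were not computed, so these counts cannot be read as a trait of these genes.

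Different probe sets of one gene often disagreed on replicate 3, and this bears on every gene given here by its brightest probe set. Of the 26 genes 16 have several probe sets. The replicate 3 shift had opposite signs among them in 8 of 16 (50%, against 53.3% of the 4310 genes with several probe sets), and was called in both directions in HMGCS1, NSDHL and EBP (3 of 16, 18.8%, against 18.1%). The range between probe sets of a gene had a median of 0.82 log2, against 0.39 over all such genes, and exceeded 1 log2 in 7 of 16 genes (43.8%, against 17.5%). The brightest probe set had the smallest shift in 10 of 16 (62.5%, against 42.1%).

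ACLY showed the widest range. Its brightest probe set, 201128_s_at, shifted by -0.14, while 201127_s_at shifted by -1.74 and 210337_s_at by -2.17, the last reading 10.94, 10.76 and 8.87 with Bf 140 nM and 11.27, 10.77 and 8.65 with DMSO 0.6%. In SCD the brightest, 200832_s_at, shifted by -0.087 and the other 3 by -0.78, -1.20 and -1.64. EBP had -0.71 on its brightest and 0.37 and 1.21 on the others. HMGCS1 had 0.61 against -0.95, and GGPS1 -0.21 against 1.07. The direction at replicate 3 of HMGCS1, NSDHL, EBP and GGPS1 turned when all probe sets of the gene were averaged, to -0.17, -0.044, 0.29 and 0.43.

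**Figure D4:**
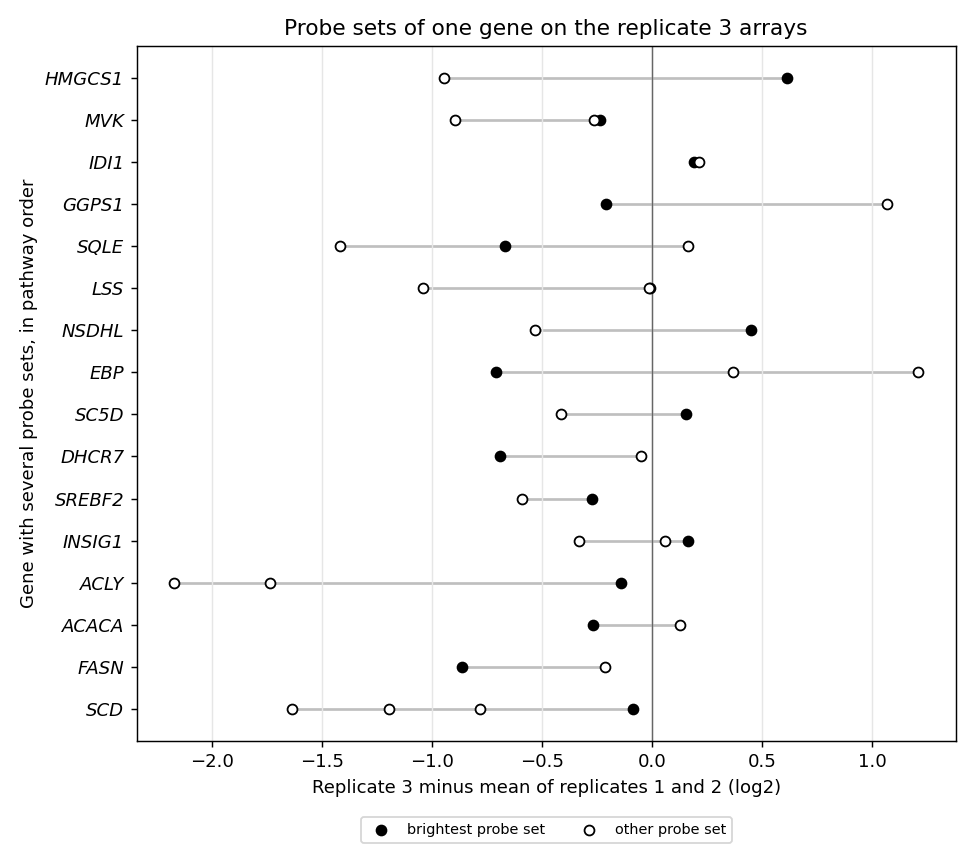
Replicate 3 minus the mean of replicates 1 and 2 (log2, x axis) for every probe set of the 16 genes with several (y axis, in pathway order), the brightest filled and the others open. The probe sets of ACLY span 2.03 log2, and in 8 of the 16 genes the points lie on both sides of 0.

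The Bf 140 nM minus DMSO 0.6% difference had a narrower range between probe sets than the replicate 3 shift. Its median range was 0.084 log2 per gene (0.086 over all such genes), with the widest in EBP at 0.43. That range still exceeded the median size of the difference itself, 0.034 log2 over the 26 genes. The sign of the difference was opposite among the probe sets of 12 of the 16 genes (75%, against 57.9%). Over all 50 probe sets the difference ran from -0.22 (EBP, 202735_at) to 0.20 (EBP, 213789_at), and the 2 extremes belong to the same gene.

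In 3 lists of neighbouring genes 0 members passed between Bf 140 nM and DMSO 0.6% in limma, against a background of 0%. At an unadjusted p under 0.05 the background was 0.0585% of all genes, so counts of 0 say little about these lists. Of 15 measured genes of 20 in SREBP processing and its other lipid targets, 0 had an unadjusted p under 0.05, and the median difference was 0.045. The genes with the smallest p there were MID1IP1, with a log2 difference of 0.13, and the fatty acid desaturase FADS2, with a log2 difference of 0.14. At replicate 3, 9 of the 15 were higher and 3 lower, where 20% of all genes were higher and 25.6% lower. The genes with the smallest p at replicate 3 were MBTPS1 and MBTPS2, the Golgi proteases that release SREBP, with log2 shifts of -1.38 and -1.41. For oxysterol sensing and cholesterol handling 0 of 22 measured genes of 24 had an unadjusted p under 0.05, with a median difference of 0.012. RXRB and MYLIP had the smallest p, with log2 differences of -0.091 and 0.10. At replicate 3, 2 of the 22 were higher and 9 lower, against the same 20% and 25.6% of all genes, and SCARB2 and STARD3 had the smallest p, with log2 shifts of -1.51 and -0.51. For the enzymes that use prenyl groups 0 of 11 measured genes of 14 had an unadjusted p under 0.05, with a median difference of 0.0047. RABGGTB and DHDDS had the smallest p, with log2 differences of 0.062 and -0.041. At replicate 3, 5 of the 11 were higher and 2 lower, against 20% and 25.6% of all genes, and PDSS2 and FNTA had the smallest p, with log2 shifts of 0.67 and 0.73.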

How the data were processed

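RNA of SH-SY5Y cells after 1 h of Bf 140 nM or DMSO 0.6% was hybridised to 6 Affymetrix arrays. The authors took intensities from GCOS, normalized them by VSN in R 2.5.0 and deposited generalized log2 values of each array. The set of arrays normalized jointly, the probe summarization and the genome build are not given in the sources used here. The Present-call filter of the methods had not been applied to the deposited values.

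Of 22277 probe sets 62 controls were left out. Names came from the platform annotation: 19064 probe sets carry 1 symbol, 1043 several and 2108 none. Fits used limma 3.58.1 in R 4.3.3 over 22215 probe sets, without a filter, with Benjamini-Hochberg adjustment and an adjusted p under 0.10. They were tested on simulated data. The data simulated for the treatment fits held no spread between replicate numbers, so they cannot show what the leading fit recovers in its presence. The number of arrays limits the precision. The replicate numbers were taken to pair the arrays, because the residuals from the group means correlated within numbers 1, 2 and 3 at 0.725, 0.783 and 0.880. Residuals of a group sum to 0, so a shift shared by both replicate 3 arrays also raises the values of numbers 1 and 2. Over all values each array correlated best with the array of its own number in the other group, at 0.9964, 0.9979 and 0.9954. The leading fit has no block, as the study's methods name no pairing. All member genes are named, and in the other lists at most the 2 genes with the smallest p in each fit. The members, lists and tests were chosen with earlier results of these data known. Alternatives were the replicate block, 2 scalings, filters at 2 brightness levels, trend and robust eBayes, the mean of a gene's probe sets, leaving out each array, other thresholds and SAM. Leaving out both replicate 3 arrays was chosen after seeing the data.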

Additional observations from a re-analysis of the deposited data

How the results depend on the processing

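The count of pathway genes that passed between Bf 140 nM and DMSO 0.6% was 0 under all 18 alternatives, and the replicate block changed no call (0 genes with it). The median difference, 0.013 log2, ranged from -0.062 to 0.060 when single arrays were left out, the extremes being -0.062 without Bf 140 nM replicate 1, 0.060 without Bf 140 nM replicate 3 and -0.060 without DMSO 0.6% replicate 3. With equal array medians it was -0.0066. None of the 389 single-gene values under the alternatives passed the test, and 93 had another sign than the leading value. The count at replicate 3, 17 genes, ranged from 10 (without DMSO 0.6% replicate 2) to 19 when single arrays were left out, and from 14 to 20 under the other alternatives. Of 311 single-gene values at replicate 3, 251 stayed on their side of the threshold without a called direction turning, 33 no longer passed, 22 passed only under the alternative and 5 turned. In all 19 values changed sign, those 5 included, and the others passed neither before nor after. The mean of all probe sets turned HMGCS1 to -0.17, GGPS1 to 0.43, NSDHL to -0.044 and EBP to 0.29, since other probe sets of these genes moved the other way, and equal array medians turned LSS to 0.19. Under all 12 alternatives run for single genes at replicate 3, HSD17B7 and MSMO1 were called higher and DHCR7, FASN, INSIG2, SQLE and SREBF1 lower. Detection calls were not used here, so how far each probe set stood above background was not assessed.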
